A study of Mus musculus with 15 samples.

Results

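The genes described here are 10 inflammatory genes of 6DT1 mouse mammary cancer cells, chosen by name with earlier results of these data known: the chemokines Ccl2, Ccl7, Cxcl1, Cxcl2 and Cxcl5, the prostaglandin synthase Ptgs2, the cytokines Csf1 and Lif, and the NF-kB inhibitors Nfkbia and Tnfaip3. Of these, 9 were measured in both gene tables, among 13501 genes for the overexpression experiment and 13669 for the knockdown experiment, and 8 among the 13142 genes of a transcript table that holds all libraries. Cxcl2 was listed in none of the tables and Cxcl5 was not listed by transcript. Levels are given in CPM, reads of a gene scaled to a fixed library total and not divided by its length. The tables hold only genes whose geometric mean reached 1 CPM, so nothing is known here of a gene that was not listed.

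Messenger RNA was sequenced in 15 libraries of 5 lines, 3 libraries each, all of 6DT1 cells, which form mammary tumours that metastasise to the lung in FVB/N mice. EV cells carried an empty vector and OE cells a vector for Smarcd1, a subunit of the SWI/SNF chromatin remodelling complex, and both lines were kept in blasticidin. ShScr cells carried a scrambled hairpin and the KD4 and KD6 cells each a different hairpin against Smarcd1, and these 3 lines were kept in puromycin. All were transduced, drug-selected cells grown on plastic without other treatment, EV and shScr are labelled wildtype, and RNA was taken 24 h after seeding at 70% confluence, each replicate from another passage. Vector, drug and line cannot be told apart in a comparison of EV with shScr, and 1 line stands for each hairpin.

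NF-kB is held in the cytoplasm by inhibitor proteins of which IkB-alpha, the product of Nfkbia, is the best known. Signals from TNF, interleukin 1 and Toll-like receptors lead to its degradation, and the released NF-kB dimers switch on chemokines, Ptgs2 and, as a brake on the pathway, Nfkbia and Tnfaip3 themselves. In mammary tumours, Ccl2 and Csf1 are known for drawing in and sustaining macrophages, Cxcl1 and Cxcl5 for drawing in neutrophils, and Ptgs2 for making prostaglandins.

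Windows before the gene start are shown because several of these genes are textbook NF-kB targets and their mRNA is compared below. RefSeq promoters of build GRCm38.p6 were found for 7 of the 10 genes, and not for Ccl2, Ccl7 or Cxcl5. In the 250 bases before the start, a kappaB consensus on either strand was present in 5 of these 7 genes, beside 3.90% of all 32851 promoters of that length. The first value counts genes and the second promoters. As several of the genes are textbook NF-kB targets, the 2 values are a description and not a test. The AP-1 motif TGANTCA was present in 6.75% of all promoters and the C/EBP motif TTNNGCAA in 9.56%. Each line gives the strand of the gene, 5′ to 3′, with the match in capitals.
Cxcl1, kappaB, chr5:90891144-90891213 (+): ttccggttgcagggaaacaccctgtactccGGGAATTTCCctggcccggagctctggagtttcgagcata
Csf1, kappaB on the opposite strand, chr3:107760584-107760653 (-): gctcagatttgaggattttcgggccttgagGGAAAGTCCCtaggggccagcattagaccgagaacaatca
Nfkbia, kappaB on the opposite strand, chr12:55492648-55492706 (-): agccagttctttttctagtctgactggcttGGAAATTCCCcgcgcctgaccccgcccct
Tnfaip3, kappaB, chr10:19015496-19015565 (-): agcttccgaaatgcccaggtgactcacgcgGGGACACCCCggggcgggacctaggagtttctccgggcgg
Ptgs2, C/EBP, chr1:150099932-150099999 (+): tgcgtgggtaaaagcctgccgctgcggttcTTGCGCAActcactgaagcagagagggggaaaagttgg
Lif, AP-1, chr11:4257318-4257376 (+): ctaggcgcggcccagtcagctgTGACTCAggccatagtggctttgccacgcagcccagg
The kappaB match began 71 bases before the start of Cxcl1, 154 before that of Csf1 and 29 before that of Nfkbia. The Cxcl1 match was met on both strands at adjoining positions that overlap. Tnfaip3 had 2 promoters in the table, and the first of them held 2 kappaB matches, at 125 and 12 bases, and an AP-1 match at 136. Cxcl2, the remaining gene with a kappaB match, was not measured. Ptgs2 and Lif held no kappaB match in this window. A match is a string of letters, and binding was not measured.

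The targeted gene was checked first. Smarcd1 was at 70.4, 65.0 and 61.7 CPM in OE against 31.9, 27.1 and 29.9 in EV (2.22-fold, adjusted p = 0.00355). It was at 9.07, 9.05 and 9.27 in KD4 against 14.5, 16.5 and 15 in shScr (59.5%, adjusted p = 0.000873). KD6 stood at 13.2, 14.8 and 15.1, 93.6% of shScr (adjusted p = 0.701), so its Smarcd1 mRNA overlapped the control. Smarcd1 protein was not measured in these libraries. The paper shows it by western blot for its hairpin lines, which are not tied there to the names KD4 and KD6. By summed transcripts of the table that holds all libraries, OE had 36.4 to 38.3 CPM and EV 27 to 32.4 (37.3 ± 0.96 against 29.4 ± 2.74), and comparisons below by summed transcripts rest on these lower OE levels. EV and shScr also differed in Smarcd1, with 29.4 against 15.3 CPM by summed transcripts (adjusted p = 7.48e-05). Without EV replicate 3 or OE replicate 2 the OE call was lost (adjusted p = 0.0520 and 0.0533). On the first principal component of the OE and EV table, EV replicate 1 had a score of 19.7 and the other libraries scores of -9.7 to -0.6.

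Of 8 epithelial tumour cell markers 3 were listed, Krt8, Krt18 and Krt19, summing to 660 to 961 CPM over all libraries, while Epcam and Cdh1 were not listed. Immune markers were listed for 2 of 13 genes in OE and EV (Cd68 and Cd14, 58.6 to 81.2 CPM together) and for 3 in the hairpin lines with S100a8 added (38.7 to 61.0), and Ptprc was not among them. In KD4, 2 of the 3 keratins had a higher mean than in shScr and 1 a lower one, and their sum was 763 to 961 CPM against 698 to 770. Of the 3 immune markers there, 1 had a higher mean and 2 a lower one. The keratin that fell, Krt19, was at 57.3% of shScr in KD4 (adjusted p = 0.00106). S100a8, which lay near the lower limit of the tables, was at 14.2% (adjusted p = 0.0161, and 0.0597 without KD4 replicate 2). Its level in shScr varied widely between libraries. No other of these markers passed in KD4 or KD6 against shScr, apart from Pdgfra. Of 9 fibroblast markers only Pdgfra was listed. It was at 2.54 to 3.55 CPM in shScr, 7.12 to 7.75 in KD4 (adjusted p = 0.000458) and 4.42 to 5.11 in KD6 (adjusted p = 0.0506). Endothelial markers were listed for 2 of 6 genes in OE and EV (6.55 to 37.3 CPM) and for 0 in the hairpin lines. In bulk RNA, more cells of a kind and more RNA per cell cannot be told apart, and the part of these markers in the results was not tested.

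Smarcd1 was raised and lowered to ask what its level does in these cells, and the 9 genes were read in each experiment against its own control. After overexpression 0 of 9 genes passed (adjusted p under 0.05, against 0.00741% of all genes), 1 had an unadjusted p under 0.05 (13% of all genes) and none had libraries that did not overlap (20% of all genes). In KD4 against shScr 4 of 9 passed, against 9.58% of all genes: Nfkbia, Csf1 and Ccl2 rose (5.71% of all genes rose) and Ptgs2 fell (3.87% fell). In KD6 against shScr 1 of 9 passed, against 2.91% of all genes, and this was Ptgs2, which fell (0.871% fell). The libraries of KD4 and shScr did not overlap in 5 of 9 genes (29.5% of all genes), and those of KD6 and shScr in 6 of 9 (22.2%). The median log2 change of the 9 genes was 0.02 in OE, 0.26 in KD4 and -0.17 in KD6, beside 0.01, 0.00 and 0.00 for all genes. KD4 and KD6 share the shScr libraries as control. These genes and the lists below were chosen with earlier results of these data known. Their shares beside those of all genes are therefore a description and not a test.

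**Figure D1:**
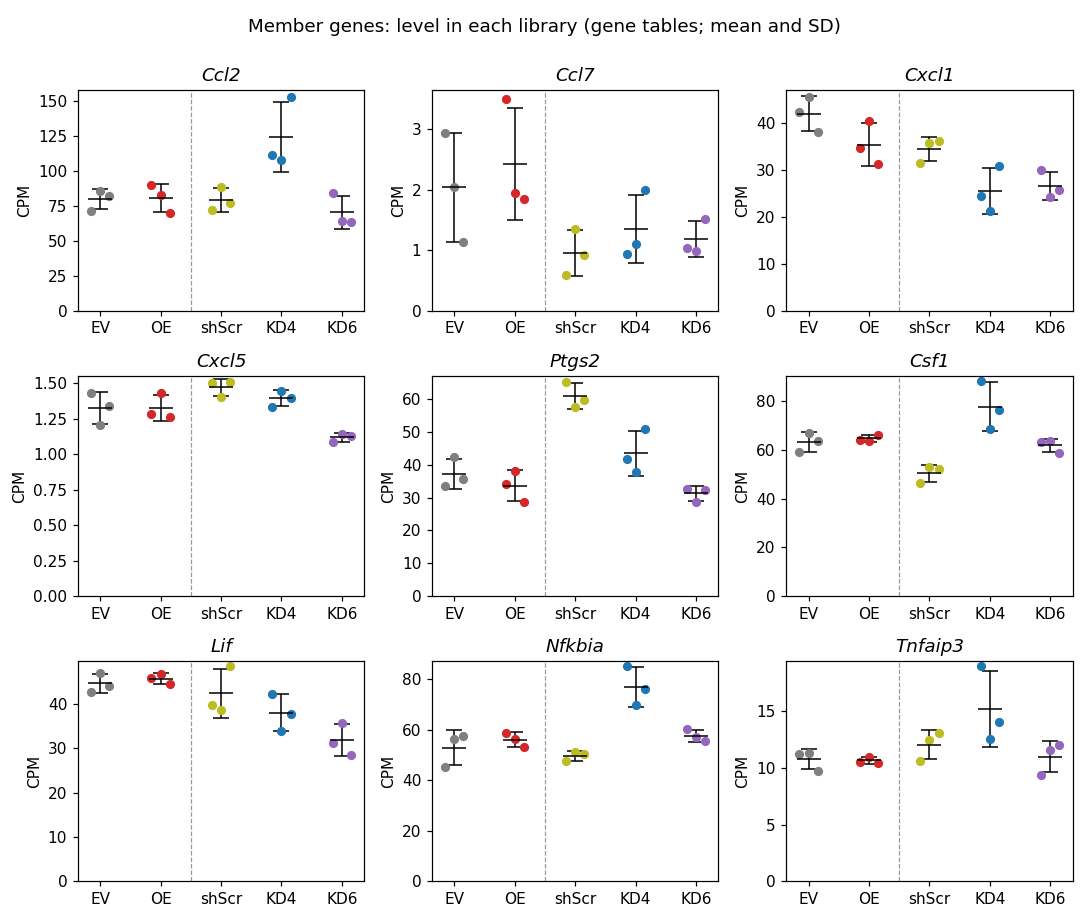
Level in CPM (vertical axes, from 0) of the 9 measured genes in each of the 15 libraries by line, with the mean and the standard deviation of 3 libraries; the dashed line parts the 2 gene tables, which were normalized separately. KD4 has the highest mean for Ccl2, Csf1, Nfkbia and Tnfaip3, and shScr stands above all other lines for Ptgs2.

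Ccl2 (ENSMUSG00000035385), which attracts monocytes through the receptor Ccr2, was at 111, 108 and 153 CPM in KD4. The shScr libraries were at 72.0, 88.4 and 77.1 and the KD6 libraries at 84.2, 63.9 and 63.6. All KD4 libraries lay above all libraries of the other lines, and KD4 replicate 3 was the highest. KD4 exceeded shScr 1.57-fold (124 ± 25.1 against 79.2 ± 8.39, SD, n = 3; log2 change 0.63 ± 0.15 SE, adjusted p = 0.0240). The call was lost without KD4 replicate 3 (adjusted p = 0.0525), shScr replicate 1 (0.0924) or shScr replicate 3 (0.0708). KD6 was at 70.6 ± 11.8 and overlapped shScr (log2 change -0.17 ± 0.15, adjusted p = 0.663). In EV it was at 71.5, 85.7 and 82.4 and in OE at 89.9, 82.8 and 70.0, so that these groups overlapped throughout (95% interval of the log2 difference -0.21 to 0.24, adjusted p = 0.962). By summed transcripts the lines below KD4 ran OE, EV, shScr and KD6, and each overlapped the next. Transcript ENSMUST00000000193 carried on average between 95.8% and 96.7% of Ccl2 in each line.

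Ccl7 (ENSMUSG00000035373), a neighbour of Ccl2 on chromosome 11 with an overlapping set of receptors, lay close to the lower limit of the tables. It was at 0.586, 1.35 and 0.924 CPM in shScr, 0.943, 1.11 and 2.00 in KD4 and 1.03, 0.988 and 1.52 in KD6. In EV it was at 2.94, 2.04 and 1.13 and in OE at 3.50, 1.95 and 1.85. The libraries of each line overlapped the next in the order OE, EV, KD4, KD6 and shScr, and no comparison passed (adjusted p = 0.453 for KD4, 0.763 for KD6 and 0.777 for OE). The interval of the OE difference ran from -0.38 to 0.76 on the log2 scale, the widest of the 9 genes.

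Cxcl1 (ENSMUSG00000029380), which attracts neutrophils through Cxcr2, had the lowest p of the 9 genes in OE. It was at 34.6, 40.4 and 31.2 CPM in OE and 42.4, 45.5 and 38.0 in EV, and OE replicate 2 reached into the EV range (log2 change -0.24 ± 0.10, unadjusted p = 0.0413, adjusted p = 0.363). The shScr libraries were at 31.5, 35.8 and 36.1, the KD4 libraries at 24.5, 21.3 and 30.8 and the KD6 libraries at 29.9, 24.2 and 25.7. All 6 hairpin libraries lay below all 3 shScr libraries, but neither line passed, with 74.1% of shScr in KD4 (log2 change -0.43 ± 0.13, adjusted p = 0.0595) and 77.1% in KD6 (-0.37 ± 0.13, adjusted p = 0.189). Without KD4 replicate 3 the KD4 difference passed (log2 change -0.57, adjusted p = 0.0132), and after quantile normalization it passed as well (adjusted p = 0.0421). Between 77.5% and 81.7% of Cxcl1 was transcript ENSMUST00000031327 in the mean of each line.

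Cxcl5 (ENSMUSG00000029371), another Cxcr2 ligand, was at 1.5, 1.4 and 1.5 CPM in shScr, 1.33, 1.45 and 1.40 in KD4 and 1.08, 1.14 and 1.13 in KD6. The KD6 libraries lay below all others of this table, at 76.1% of shScr (log2 change -0.22 ± 0.10, adjusted p = 0.307). At such levels the added 1 CPM flattens a fold change. EV (1.21 to 1.43) and OE (1.26 to 1.43) overlapped.

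Ptgs2 (ENSMUSG00000032487), the inducible cyclooxygenase that starts prostaglandin synthesis, was the only one of the 9 genes that passed with both hairpins. It was at 65.3, 57.5 and 59.8 CPM in shScr, 41.6, 37.7 and 50.9 in KD4 and 32.5, 28.8 and 32.4 in KD6. The 3 lines did not overlap one another. KD6 was at 51.3% of shScr (31.2 ± 2.14 against 60.9 ± 3.99; log2 change -0.94 ± 0.11, adjusted p = 0.00147) and KD4 at 71.3% (43.4 ± 6.75; -0.49 ± 0.11, adjusted p = 0.0173). The KD6 call held in each of the 9 fits that left out 1 library (highest adjusted p = 0.0112), whereas the KD4 call was lost without KD4 replicate 2 (adjusted p = 0.0678) or shScr replicate 1 (0.0734). Ptgs2 fell in KD6, in which Smarcd1 mRNA overlapped the control, and the part of Smarcd1 in this fall was not tested. In EV Ptgs2 was at 33.5, 42.3 and 35.5 and in OE at 34.0, 38.2 and 28.8, and these groups overlapped (log2 change -0.14 ± 0.12, adjusted p = 0.644). All EV and OE libraries thus lay below every shScr library, as did those of both hairpin lines. A single transcript, ENSMUST00000035065, was listed for it.

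Csf1 (ENSMUSG00000014599), the macrophage growth factor, was at 46.4, 52.9 and 52.0 CPM in shScr, 88.3, 68.6 and 76.4 in KD4 and 63.3, 63.6 and 58.6 in KD6. None of the 3 lines overlapped another. KD4 was 1.54-fold above shScr (77.8 ± 9.93 against 50.4 ± 3.51; log2 change 0.61 ± 0.09, adjusted p = 0.00301), and this call held in each fit that left out 1 library (highest adjusted p = 0.0156). In KD6 it was at 61.8 ± 2.82, and its difference from shScr did not pass (log2 change 0.29 ± 0.09, adjusted p = 0.152). OE (64.2, 63.7 and 66.2) and EV (59.0, 66.8 and 63.8) differed by a log2 change of 0.04 with an interval from -0.09 to 0.16. By summed transcripts shScr was the lowest of the 5 lines and did not overlap KD6, the next above it, while KD6, EV and OE overlapped in sequence. ENSMUST00000014743 made up 94.8% to 96.9% of Csf1 in the mean of each line.

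Lif (ENSMUSG00000034394), a cytokine of the interleukin 6 family that acts through gp130, was at 39.7, 38.7 and 48.6 CPM in shScr, 42.2, 33.9 and 37.8 in KD4 and 31.2, 35.6 and 28.5 in KD6. KD6 did not overlap shScr but did not pass (75.1%, log2 change -0.40 ± 0.12, adjusted p = 0.105). KD4 overlapped shScr (adjusted p = 0.460). In EV it was at 42.7 to 46.9 and in OE at 44.4 to 46.8, with an interval of the log2 difference from -0.09 to 0.16. Lif was divided between 2 transcripts. ENSMUST00000040750 took 57.7% ± 6.40 of Lif in shScr, 45.7% ± 5.45 in KD4, 42.0% ± 4.68 in KD6, 44.6% ± 6.40 in OE and 31.8% ± 10.1 in EV. Its CPM was lower in each KD6 library and in each EV library than in each shScr library (13.1 ± 1.5 and 13.6 ± 5.18 against 25.0 ± 5.64). ENSMUST00000066283 was at 18.2 ± 3.21 in KD6, 28.5 ± 2.16 in EV and 18.0 ± 1.80 in shScr. These shares are a description, and no test of transcript use was run.

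**Figure D2:**
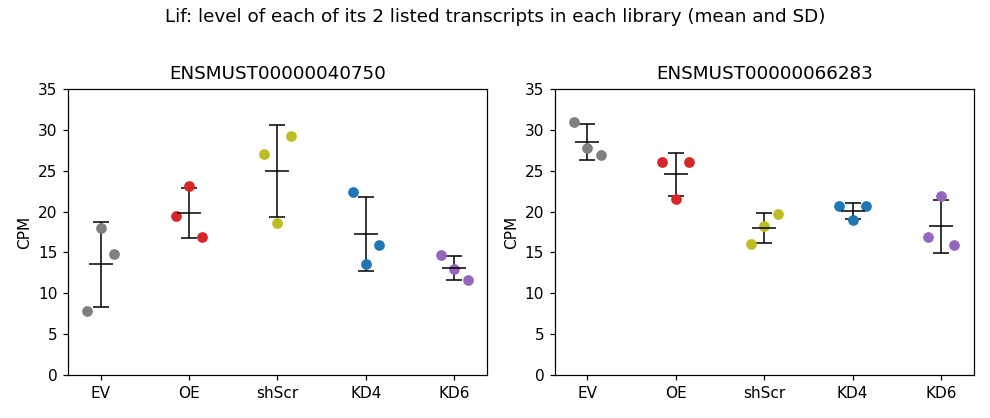
Level in CPM (vertical axes, from 0) of the 2 transcripts listed for Lif in each library by line, with mean and standard deviation of 3 libraries. ENSMUST00000040750 has its highest mean in shScr (25.0) and ENSMUST00000066283 in EV (28.5).

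Nfkbia (ENSMUSG00000021025), which encodes IkB-alpha, was at 47.5, 51.1 and 50.2 CPM in shScr, 85.1, 69.6 and 76.0 in KD4 and 60.0, 57.2 and 55.4 in KD6. The 3 lines again did not overlap. KD4 exceeded shScr 1.55-fold (76.9 ± 7.80 against 49.6 ± 1.85; log2 change 0.62 ± 0.08, adjusted p = 0.00111), and leaving out any 1 library kept the call (highest adjusted p = 0.00674). KD6 was at 57.5 ± 2.31 and did not pass (log2 change 0.21 ± 0.08, adjusted p = 0.230). EV was at 45.0, 56.3 and 57.4 and OE at 58.8, 56.2 and 53.0, which overlapped (interval -0.12 to 0.30). KD4 was therefore the line set apart for Nfkbia, above all 12 other libraries by summed transcripts, whereas the other 4 lines overlapped from one to the next.

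Tnfaip3 (ENSMUSG00000019850), the ubiquitin-editing enzyme A20 that damps signalling to NF-kB, was at 10.6, 12.4 and 13.1 CPM in shScr, 18.9, 12.5 and 14.1 in KD4 and 9.4, 11.6 and 12 in KD6. KD4 had the highest mean, 15.2 ± 3.34 against 12 ± 1.28 in shScr, but its libraries overlapped shScr in the gene table and it did not pass (log2 change 0.30 ± 0.15, adjusted p = 0.244). KD6 gave a log2 change of -0.12 ± 0.15 (adjusted p = 0.776). OE (10.4 to 11) lay inside the range of EV (9.73 to 11.3). Its 3 transcripts were led by ENSMUST00000019997, with 58.3% to 71.3% in the mean of each line.

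**Figure D3:**
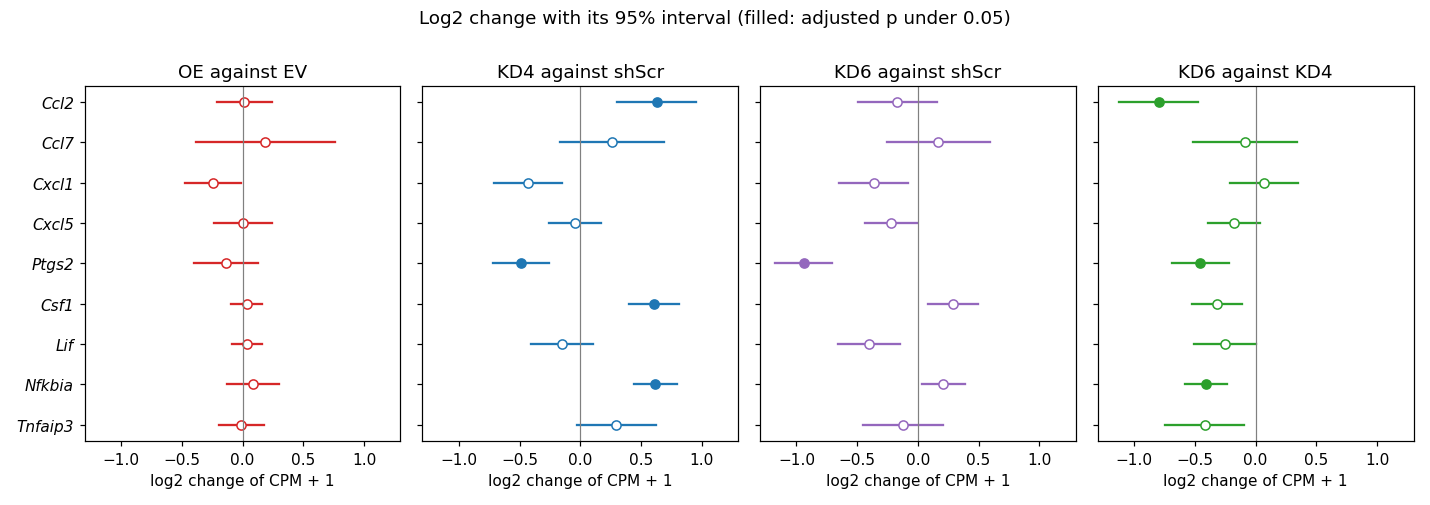
Log2 change of CPM + 1 (horizontal axes) of the 9 genes with its 95% interval in OE against EV, KD4 against shScr, KD6 against shScr and KD6 against KD4; filled points passed at an adjusted p under 0.05. In OE all 9 points lie between -0.24 and 0.19, in KD4 3 filled points lie above 0 and 1 below, and in KD6 only Ptgs2 is filled against shScr, at -0.94.

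The difference between the hairpins was tested directly, in the same fit of 3 groups. Of the 9 genes, 3 passed, against 4.91% of all genes, and all 3 were lower in KD6 than in KD4 (2.39% of all genes). Ccl2 in KD6 was at 56.9% of KD4 (log2 change -0.80 ± 0.15, adjusted p = 0.0113), Nfkbia at 74.9% (-0.41 ± 0.08, adjusted p = 0.0150) and Ptgs2 at 71.9% (-0.45 ± 0.11, adjusted p = 0.0348). In 6 of 9 genes the libraries of KD6 and KD4 did not overlap (21.6% of all genes), each time with KD6 lower (10.8%). Cxcl1 alone had a higher mean in KD6, 26.6 ± 2.94 against 25.5 ± 4.84 (adjusted p = 0.872). Csf1 (log2 change -0.32 ± 0.09, adjusted p = 0.0835) and Tnfaip3 (-0.42 ± 0.15, adjusted p = 0.153) did not pass. The Ccl2 call was lost without KD6 replicate 2 (adjusted p = 0.0545), and the Nfkbia call without KD6 replicate 2 (0.0641) or KD6 replicate 3 (0.0603). The Ptgs2 call was lost in 7 of 9 fits that left out 1 library, namely shScr replicate 2 or 3, KD4 replicate 1 or 3, or any 1 KD6 library (adjusted p = 0.0532 to 0.141). Beside these differences, Smarcd1 was 1.57-fold higher in KD6 than in KD4 (adjusted p = 0.00292). Krt19 was at 18.8 ± 2.32 CPM in KD6 and 12.9 ± 0.87 in KD4 (log2 change 0.51, adjusted p = 0.0136, and 0.0623 without KD6 replicate 2). The other 2 keratins listed had a lower mean in KD6 than in KD4 (log2 change down to -0.1) and did not pass. Pdgfra was at 63.3% of KD4 (adjusted p = 0.0170), a call lost without KD4 replicate 1 or 2 or KD6 replicate 1 or 2 (0.0537 to 0.0668). Their part in the differences was not tested.

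With both hairpins taken as 1 group of 6 libraries, 1 of 9 genes passed against shScr (2.66% of all genes), and it fell (0.71%). Ptgs2 was at 61.3% of shScr (37.3 ± 8.03 against 60.9 ± 3.99; log2 change -0.71 ± 0.15, adjusted p = 0.0292), and its call was lost without any 1 shScr library (adjusted p = 0.101 to 0.146), KD4 replicate 2 (0.0573) or KD6 replicate 1 (0.0560). Csf1 (log2 change 0.45 ± 0.11, adjusted p = 0.0664), Cxcl1 (-0.40 ± 0.11, 0.0861) and Nfkbia (0.41 ± 0.12, 0.115) were next. Where the mean of KD4 and KD6 was tested in the fit of 3 groups, Csf1 (adjusted p = 0.0106) and Nfkbia (0.00687) passed with Ptgs2. Smarcd1 itself did not pass with the hairpins as 1 group, and by the mean of KD4 and KD6 it did (log2 change -0.388, adjusted p = 0.013). The pooled group mixes lines whose Ccl2 differed, and Ccl2 gave 97.3 ± 34.1 against 79.2 ± 8.39 (adjusted p = 0.673).

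The control lines were compared with each other by summed transcripts in 1 fit of 5 groups, because every result above rests on its own control. Of 8 genes, 2 passed between EV and shScr, against 15.8% of all genes. Ptgs2 was at 37.1 ± 4.61 CPM in EV and 60.9 ± 3.99 in shScr (log2 change -0.70 ± 0.12, adjusted p = 0.00226), a difference past the threshold in the same direction as those of KD4 and KD6. Csf1 was at 59.1 ± 3.54 in EV and 46.0 ± 3.58 in shScr (0.36 ± 0.08, adjusted p = 0.0120), again in the direction of KD4, and this call was lost without shScr replicate 1 (adjusted p = 0.0577). Nfkbia was at 52.7 ± 7.08 and 49.6 ± 1.78 (adjusted p = 0.581), and Ccl2 at 79.8 ± 7.34 and 79.1 ± 8.44 (adjusted p = 0.957). The range of Nfkbia and Ccl2 in shScr thus overlapped that of EV, unlike Ptgs2, Csf1 and Cxcl1. Cxcl1 was at 41.8 ± 4.06 in EV and 33.9 ± 2.53 in shScr (log2 change 0.29) and did not pass. Ccl7 had a mean of 2.04 ± 0.91 against 0.954 ± 0.384 (adjusted p = 0.0987) and passed without EV replicate 3 (0.0472). Beside these differences, 2 of the 3 immune markers listed passed in opposite directions. Cd68, a macrophage marker, was at 62 ± 1.32 CPM in EV and 34.9 ± 3.43 in shScr (adjusted p = 0.00662). S100a8, a marker of neutrophils, was at 1.13 ± 0.47 in EV and 3.89 ± 2.64 in shScr (adjusted p = 0.0333), a call lost without EV replicate 1 or 2 or shScr replicate 1 or 2 (0.0508 to 0.133). Their part in the differences between the controls was not tested.

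In the same fit, the effect of OE over EV was set against the mean effect of the hairpins over shScr. None of 8 genes passed by limma (1.9% of all genes), and 4 had an unadjusted p under 0.05 (18.7% of all genes). Csf1 came nearest, with a difference of effects of -0.45 ± 0.11 on the log2 scale (adjusted p = 0.0505), and it passed without KD4 replicate 1 (0.0389), KD4 replicate 2 (0.0331) or KD6 replicate 3 (0.0494). Ptgs2 gave 0.58 ± 0.16 (adjusted p = 0.0839) and passed without KD4 replicate 3 (0.0465).

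Among other NF-kB subunits and inhibitors, Relb fell in KD6 and Relb and Nfkbie were lower in KD6 than in KD4. Of 14 genes measured, 0 passed in KD4 by limma (3 had an unadjusted p under 0.05, against 24.7% of all genes), 1 fell in KD6 (0.871% of all genes) and 2 were lower in KD6 than in KD4 (2.39%). Relb, the subunit of the non-canonical pathway, was at 6.27, 7.10 and 8.27 CPM in shScr, 10.5, 7.01 and 9.29 in KD4 and 2.93, 2.81 and 2.96 in KD6. Each KD6 library lay below each shScr and KD4 library, and below those of EV and OE (5.39 to 7.17) in the gene table normalized separately. It fell in KD6 (log2 change -1.07 ± 0.14, adjusted p = 0.00303) and was also lower than in KD4 (-1.33 ± 0.14, adjusted p = 0.000701), and both calls held in each fit that left out 1 library. Nfkbie, which encodes IkB-epsilon, was at 1.99, 1.95 and 1.48 in KD6 and 5.77, 4.50 and 4.48 in KD4 (-1.07 ± 0.19, adjusted p = 0.00914), with shScr at 2.31, 4.19 and 4.68. For this list the median log2 change was -0.08 in KD4 and -0.13 in KD6, beside 0.001 and 0.002 for all genes. A lower mean than in shScr was found for 10 of 14 genes in KD4 and 13 of 14 in KD6, which share the shScr libraries. In OE 0 of 14 passed by limma (2 had an unadjusted p under 0.05, against 13% of all genes), and the lowest p was that of Rel, the c-Rel subunit (0.23 ± 0.08, adjusted p = 0.331).

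Among 25 receptors and adaptors upstream of NF-kB, all were measured, 3 rose in KD4 (5.71% of all genes rose) and 1 fell in KD6 (0.871% fell). In KD4 these were Traf3, an adaptor that restrains the non-canonical pathway (41.2 ± 6.30 against 28.8 ± 2.08 CPM; log2 change 0.49 ± 0.11, adjusted p = 0.0158), Il1rap, the co-receptor of interleukin 1 (0.35 ± 0.09, adjusted p = 0.0414), and the kinase Irak4 (0.30 ± 0.08, adjusted p = 0.0495). The Traf3 call was lost without shScr replicate 1 (adjusted p = 0.0655) or shScr replicate 2 (0.0610), that of Il1rap in 8 of 9 such fits (up to 0.136) and that of Irak4 in 9 of 9 (up to 0.146). Irak2, a kinase that relays interleukin 1 and Toll-like receptor signals, was at 17.1, 19.2 and 17.5 in shScr, 20.1, 21.8 and 22.2 in KD4 and 11.7, 13.3 and 13.4 in KD6. It fell in KD6 (-0.46 ± 0.09, adjusted p = 0.0184), a call lost without shScr replicate 2 or 3 or KD6 replicate 1 or 2 (0.0594 to 0.0962), and it was lower than in KD4 (-0.69 ± 0.09, adjusted p = 0.00144) in each fit. Il1rap (-0.42 ± 0.09, adjusted p = 0.0288), Irak4 (-0.36 ± 0.08, 0.0348) and the double-stranded RNA receptor Tlr3 (-0.53 ± 0.12, 0.0358) were also lower in KD6 than in KD4, so that 4 of 25 passed there, against 4.91% of all genes, and none of the 4 was higher in KD6. Their calls were lost in 3, 7 and 6 of the 9 fits that left out 1 library (up to 0.0964, 0.144 and 0.113). In OE 0 of 25 passed by limma, and 3 had an unadjusted p under 0.05 (13% of all genes).

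**Figure D4:**
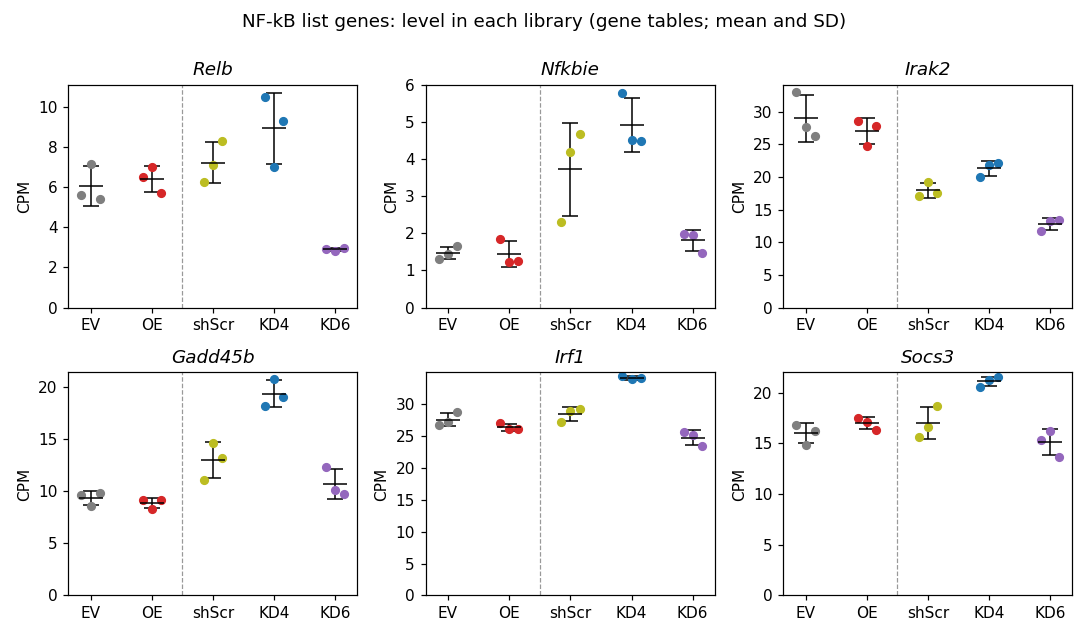
Level in CPM (vertical axes, from 0) of 6 genes of the NF-kB and cytokine signalling lists in each library by line, chosen from those that passed as lower in KD6 than in KD4, with mean and standard deviation of 3 libraries; the dashed line parts the 2 gene tables, which were normalized separately. Within the hairpin table KD4 has the highest mean and KD6 the lowest mean in each panel; Mmp3 (log2 change 1.31) and Stat3 (0.33), which were higher in KD6 than in KD4, are not plotted.

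Of 30 further NF-kB target genes 17 were measured with the hairpins, and in KD4 3 rose (5.71% of all genes) and 2 fell (3.87%). Gadd45b, a stress-induced survival gene, was at 18.2, 20.8 and 19.1 CPM in KD4, 11.1, 14.6 and 13.2 in shScr and 12.3, 10.1 and 9.71 in KD6. It rose in KD4 (log2 change 0.55 ± 0.12, adjusted p = 0.0161), a call lost without KD4 replicate 2 (0.0682) or shScr replicate 1 (0.0615), and was lower in KD6 than in KD4 (-0.80 ± 0.12, adjusted p = 0.00323) in each fit. The chemokine Cxcl16 fell in KD4, from 4.84 ± 0.13 to 3.00 ± 0.49 CPM (-0.55 ± 0.11, adjusted p = 0.0132), and its call was lost without shScr replicate 2 (0.0535). Dusp1, a phosphatase that inactivates MAP kinases, rose from 32.4 ± 0.97 to 41 ± 2.45 CPM (0.33 ± 0.07, adjusted p = 0.0166), a call lost without KD4 replicate 2 (0.0719), shScr replicate 1 (0.0595) or shScr replicate 2 (0.0719). Ier3, an immediate early response gene, fell from 93.2 ± 5.65 to 72.4 ± 10.2 CPM (-0.37 ± 0.10, adjusted p = 0.0409), and its call was lost in 7 of 9 fits that left out 1 library (up to 0.13) and with no intensity trend (0.0591). In KD6 1 of 17 passed (2.91% of all genes), and it rose: Mmp3, the stromelysin that degrades matrix, was at 13, 10.9 and 12.3 CPM against 3.58, 3.92 and 4.82 in shScr (1.36 ± 0.17, adjusted p = 0.00245). Irf1, an interferon-responsive transcription factor, was at 34.4, 33.9 and 34.1 in KD4 and 25.7, 25.1 and 23.4 in KD6 (-0.45 ± 0.07, adjusted p = 0.00381). Its rise in KD4 over shScr (0.25 ± 0.07, adjusted p = 0.0423), named after the values were seen, was lost in 7 of 9 fits that left out 1 library (up to 0.137). Between the hairpins 4 genes of this list passed (4.91% of all genes), of which 3 were lower in KD6 and 1 was higher, Mmp3. In OE 0 of 16 passed by limma, and 3 had an unadjusted p under 0.05, beside 13% of all genes.

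In the prostaglandin pathway, where 10 of 18 genes were measured beside Ptgs2 in the hairpin table, KD4 had 2 that rose (5.71% of all genes) and 1 that fell (3.87%). Ptgs1, the constitutive cyclooxygenase, was at 138, 150 and 150 CPM in KD4 against 200, 216 and 198 in shScr (log2 change -0.48 ± 0.08, adjusted p = 0.00542), and this call held in each fit that left out 1 library. Both cyclooxygenase mRNAs therefore fell in KD4. In KD6 Ptgs1 was at 206, 182 and 166 and overlapped shScr, so Ptgs2 alone of the pair passed there. Of the 10 genes, 1 passed between the hairpins, against 4.91% of all genes. This was Ptgs1, higher in KD6 than in KD4 (log2 change 0.33), whereas Ptgs2 was lower in KD6. The Ptgs1 call was lost in 8 of 9 fits that left out 1 library (adjusted p up to 0.133). Ptges, the inducible prostaglandin E synthase (13.7 ± 1.40 against 10.6 ± 0.68; 0.33 ± 0.09, adjusted p = 0.0470), rose in KD4, but its call was lost in 9 of 9 fits that left out 1 library (up to 0.160). Ptgr1, which inactivates prostaglandins and leukotriene B4, also rose (5.27 ± 0.49 against 3.31 ± 0.47; 0.54 ± 0.11, adjusted p = 0.0132), a call lost without KD4 replicate 2 (0.0571) or shScr replicate 3 (0.0521). In KD6 0 of 10 passed by limma and 5 had an unadjusted p under 0.05 (15.3% of all genes). In OE 0 of 11 passed (0.00741% of all genes) and 0 had an unadjusted p under 0.05 (13% of all genes).

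Of the receptors of these cytokines and their signalling 7 of 17 genes were measured, and in neither hairpin line did one pass against shScr by limma (4 in KD4 and 1 in KD6 had an unadjusted p under 0.05, against 24.7% and 15.3% of all genes). Between the hairpins 3 passed (4.91% of all genes), of which 2 were lower in KD6 and 1 was higher. Socs3, the feedback inhibitor of signalling by Lif, was at 20.6, 21.3 and 21.5 CPM in KD4 and 15.4, 16.2 and 13.7 in KD6 (log2 change -0.46 ± 0.09, adjusted p = 0.0150), and its call was lost without KD4 replicate 2 (0.0566) or KD6 replicate 3 (0.0578). Il34, the other ligand of the Csf1 receptor, was at 16.6, 14.4 and 19.9 in KD4 and 11.9, 10.3 and 8.84 in KD6 (-0.66 ± 0.14, adjusted p = 0.0243), a call lost in 4 of 9 fits without a library, namely KD4 replicate 1 or 3 or KD6 replicate 2 or 3 (0.0592 to 0.0868). Stat3, which Lif activates, was higher in KD6 than in KD4 (124 ± 4.06 against 98.4 ± 3.12; 0.33 ± 0.07, adjusted p = 0.0196), a call lost without KD4 replicate 2 (0.0842), KD6 replicate 1 (0.0611) or KD6 replicate 2 (0.0859).

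The lists were also read between the control lines, where 15.8% of all genes passed. By summed transcripts 8 of 16 further NF-kB target genes passed, of which 6 were higher and 2 lower in EV. The largest difference was that of Lcn2, the siderophore-binding protein lipocalin 2, with 43.2 ± 17.7 CPM in EV and 0.776 ± 0.676 in shScr (log2 change 4.63 ± 0.64, adjusted p = 0.000511). Vcam1, an adhesion molecule for leukocytes, was at 5.15 ± 0.58 in EV and 2.78 ± 0.15 in shScr (0.70 ± 0.09, adjusted p = 0.000389), and Cx3cl1, the fractalkine chemokine, at 75.8 ± 14 and 41.4 ± 6.94 (0.86 ± 0.13, adjusted p = 0.000823). Of the prostaglandin pathway 3 of 9 passed, all higher in EV, among them the cytosolic prostaglandin E synthase Ptges3 (215 ± 9.37 against 176 ± 7.75; 0.29 ± 0.06, adjusted p = 0.00851), while Ptgs2 was lower in EV. Of the 25 receptors and adaptors 5 were higher and 1 was lower in EV, and of these 6 calls none held in all of the 15 fits that left out 1 library. The lower one, Traf1, was lost in 5 of them (up to 0.119). Of the higher ones Tlr4 was lost in 4 (up to 0.103), Tank in 3 (up to 0.0564) and Irak2 in 1 (0.0551). The other two, Myd88 (0.29 ± 0.09, adjusted p = 0.0360) and Irak1 (0.22 ± 0.07, 0.0405), were named after the values were seen and were lost in 5 and 8 (up to 0.144 and 0.145). Of the NF-kB subunits and inhibitors Rel alone passed (-0.33 ± 0.10, adjusted p = 0.0437), a call lost in 10 of 15 fits that left out 1 library (up to 0.142). With pooled hairpins, where 2.66% of all genes passed, Traf3 (0.43 ± 0.10, adjusted p = 0.0400) and Ptgr1 (0.48 ± 0.10, 0.0342) were the list genes that passed. Each call was lost in 6 of 9 such fits (up to 0.189 and 0.168). No list gene passed for the effect of OE against that of the hairpins, where 1.9% of all genes did (lowest adjusted p = 0.0593, Relb). That difference for Relb was 1.34 on the log2 scale by summed transcripts. By the gene tables the changes over its whole list, Relb among them, were at most 0.23 in OE and at lowest -0.4 with pooled hairpins. The pooled group joins KD4 and KD6, and in KD6 alone Relb was at -1.07. The cause of the gap between 1.34 and the values by the gene tables was not tested.

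The pattern of each gene over the 15 libraries was compared with that of all other genes by Pearson's r on summed transcripts, as a description of points that share lines. Ptgs2 was most like Il2rg (r = 0.934), Slc39a1 (0.902) and Sbsn (0.885). Csf1 was most like Isoc1 (0.966), Dnajc30 (0.928) and Bak1 (0.927), and Nfkbia most like Efnb2 (0.940), Dip2b (0.93) and Triobp (0.928). For Ccl2 the nearest were Rhpn2 (0.948), Wdr1 (0.947) and Pmp22 (0.932), for Cxcl1 Csnk1e (0.920), Atg9b (0.917) and Aen (0.904), and for Lif Wipi2 (0.894), Fam100a (0.862) and Arfgef2 (0.859). Ccl7 was nearest to Oxnad1 (0.876), Sdc4 (0.852) and Cstf2 (0.849), and Tnfaip3 to Chst1 (0.887), the predicted gene Gm15337 (0.878) and Myo1c (0.867). None of the 8 genes had another of them among its nearest 3. Between themselves Csf1 and Nfkbia were the closest pair (r = 0.85, and 0.70 for deviations from the line means), while Cxcl1 and Ptgs2 had r = 0.20 over all libraries and 0.77 within lines. Ccl2 and Cxcl1 likewise had -0.12 over all libraries and 0.78 within lines (n = 15).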

How the data were processed

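RNA-seq of 15 libraries was analysed from 2 gene tables and 1 transcript table in CPM, which the authors had calculated from fractional read counts before they deposited them. The labels name STAR 2.7.8a and mm39 and the methods of the study an older aligner and build, so no coordinate was taken from the files. No whole-read steps were found. Depth is thus unknown, and no counting interval was given. Library sums were 894250 to 923092 CPM in the gene tables and 854736 to 902115 in the transcript table. Of the transcript data, 15 further columns matched no label and were not used. Symbols were matched to 88.1% and 87.3% of gene identifiers.

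Values were tested as log2(CPM + 1) with limma 3.58.1 (R 4.3.3, with an intensity trend) over all genes of a table, adjusted by Benjamini and Hochberg. A gene passed at an adjusted p under 0.05. The added 1 CPM understates changes of low genes. OE was compared with EV, KD4, KD6 and shScr were fitted as 3 groups, both hairpins were pooled against shScr, and EV with shScr and the effects of OE and hairpins were compared on summed transcripts in 5 groups. Tests were checked on simulated data. Folds are ratios of mean CPM, errors of folds on the log2 scale are standard errors, and errors of levels are SD of 3 libraries. The members and gene lists were chosen with earlier results of these data known. The genes named are all members, Smarcd1, per list and comparison members that passed with the smallest p (up to 4) or the one with the smallest p, the 3 genes most like each member and the markers. Alternatives were a pseudocount of 0.1, a mean of at least 5 CPM, quantile normalization, no intensity trend, a replicate block, the mean of the hairpins and leaving out each library. Figures were drawn with matplotlib 3.10.9.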

Additional observations from a re-analysis of the deposited data

Results flagged for a closer look

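The difference from the same scrambled control was unequal in the hairpin lines for 3 of the genes, each by a direct test of KD6 against KD4. Ccl2 differed by -0.80 on the log2 scale, from 124 ± 25.1 CPM in KD4 to 70.6 ± 11.8 in KD6. Ptgs2 differed by -0.45, and both hairpin lines were below shScr. Nfkbia differed by -0.41, with a mean above that of shScr (49.6 CPM) in both hairpin lines. Smarcd1 mRNA was at 15.3 ± 1.01 CPM in shScr, 9.13 ± 0.12 in KD4 and 14.4 ± 1.03 in KD6, where it overlapped shScr (adjusted p = 0.701 by limma), and its part in these differences was not tested.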

How the results depend on the processing

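Having 3 libraries a line and an unknown depth limits the detection of small differences, and Ccl7 and Cxcl5 lie near the lower limit of the tables. Directions of all calls on the members held under each alternative. The pooled hairpins gave 0 members with the replicate block and 3 with the mean of KD4 and KD6, against 1. At a mean of at least 5 CPM, where Ccl7 and Cxcl5 could not be tested, 1 member (Csf1, adjusted p = 0.0495) passed for the effect of OE against that of the hairpins, against 0. Apart from fits that left out a library, signs turned in 3 values, all near 0: Ccl2 in OE (-0.001 after quantile normalization), Cxcl5 in OE (0.000 with a pseudocount of 0.1) and Ccl2 in EV against shScr (-0.032 after quantile normalization). The causes were not tested. Ptgs2 in KD6 against KD4 had an adjusted p of 0.0501 with no intensity trend. Over all genes named, 618 values under these alternatives kept direction and side of the threshold, 48 lost and 9 gained a call.

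Leaving out 1 library, members that passed numbered 0 to 0 in OE, 2 to 4 in KD4, 1 to 1 in KD6, 0 to 3 in KD6 against KD4, 0 to 2 with pooled hairpins, 1 to 3 in EV against shScr and 0 to 1 for the difference of effects. Log2 changes that turned ran from -0.063 to 0.115 for Ccl2, -0.045 to 0.399 for Ccl7, -0.038 to 0.032 for Cxcl5, -0.013 to 0.076 for Csf1, -0.022 to 0.149 for Nfkbia and -0.074 to 0.025 for Tnfaip3 in OE. In KD6 against KD4 they ran from -0.214 to 0.1 for Ccl7 and -0.050 to 0.206 for Cxcl1, and with pooled hairpins from -0.019 to 0.168 for Tnfaip3. In EV against shScr they ran from -0.054 to 0.094 for Ccl2, -0.126 to 0.074 for Lif and -0.156 to 0.002 for Tnfaip3, and for the difference of effects from -0.259 to 0.185 for Ccl7.

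No pairing of the samples by replicate number was seen. Deviations correlated by -0.378 to 0.126 at the same number and -0.453 to 0.476 at different numbers with the hairpins. In OE and EV they correlated by -0.224 to 0.279 and -0.389 to 0.317. With 3 libraries a line these ranges cannot exclude a pairing. With the replicate block Ccl2 in KD4 (log2 change 0.63, adjusted p = 0.0651), Nfkbia in KD6 against KD4 (-0.41, 0.0536) and Ptgs2 with pooled hairpins (-0.71, 0.0735) did not pass, and 27 calls on the other genes named were lost (adjusted p = 0.0507 to 0.154).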
